A study of Homo sapiens with 16 samples.

Results

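The HOX genes encode homeodomain transcription factors that give cells along the head-to-tail axis of the embryo their regional identity. In mammals they lie in the HOXA, HOXB, HOXC and HOXD clusters, on separate chromosomes, and the order of the genes within a cluster follows the order in which they are used along the body, low-numbered groups in front and high-numbered groups behind. HOX proteins bind DNA together with PBX and MEIS cofactors, and Polycomb and Trithorax complexes keep HOX genes silent or active once a cell has its identity. Members were chosen as every row whose symbol is HOXA, HOXB, HOXC or HOXD followed by digits only. This gave 39 protein-coding genes of 58787 rows in the table of raw counts, 11 in HOXA, 10 in HOXB, 9 in HOXC and 9 in HOXD.

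RNA came from IMR32, an established human neuroblastoma cell line with amplified MYCN, whose cell type the labels give as neuroblast. Cells received either a non-targeting small interfering RNA (siNTC) or 1 of 3 siRNAs against TPX2 (a spindle protein that activates the kinase AURKA), named si45, si46 and si47. Each of the 4 groups had 4 replicates, which the series calls biological, and all come from this 1 line. The names of the table's columns carry a time of 48 h, the series title places TPX2 downstream of eIF4A-controlled translation, and the comparisons ask which transcripts differ once TPX2 is depleted.

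The total count per library ran from 5318159 to 7864343, so that 10 counts stood for 1.27 to 1.88 CPM, the count scaled to a fixed library size. Library sizes for CPM were adjusted by edgeR's TMM method. The libraries were made from the 3' ends of transcripts, so that a long transcript gives no more reads than a short one, and CPM was not divided by gene length when levels of different genes were compared. TPX2 stood at 28.0%, 24.9% and 21.8% of its siNTC mean in si45, si46 and si47 (two-sided exact permutation p = 0.0286 for each, the smallest that 4 against 4 libraries allow). The 9 adrenergic neuroblast markers, HAND2 and DBH among them, summed to 4689 to 5034 CPM in siNTC. Their sums were 4916 to 5293 in si45, 5081 to 5754 in si46 and 5244 to 5782 in si47. In the mean of the siRNAs against siNTC 2 of them rose (CHGA and HAND2) and 1 fell (DBH). In that comparison 7.14% of all genes tested were called. The 8 mesenchymal or fibroblast markers summed to 310 to 350 CPM in siNTC. The sums were 315 to 368 in si45, 306 to 360 in si46 and 302 to 352 in si47. In siNTC TWIST1 was the largest part, at 244 CPM. COL1A1 averaged 37.1 and THY1 32.1 CPM there, and PRRX1 had 0 counts. The Schwann cell markers SOX10 and S100B were at 0 in siNTC, where the list of 5 summed to 5.38 to 10.4 CPM (5.03 to 11.4 in the knockdown libraries), and the 4 white blood cell markers summed to at most 2.97 CPM there. Their part in the HOX values was not tested. In bulk RNA, fewer cells with a transcript and less of it per cell cannot be told apart.

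In the control cells reads of HOX genes came from parts of the HOXC and HOXD clusters, and no HOXA or HOXB member had a count. A gene was called expressed where each of the 4 siNTC libraries had at least 10 counts, and low where it had any count in siNTC short of that. By this rule 5 of the 39 genes were expressed, namely HOXC4, HOXC6, HOXD3, HOXD8 and HOXD9. A further 9 were low (HOXC5, HOXC8, HOXC9, HOXC10, HOXD1, HOXD4, HOXD10, HOXD11 and HOXD13), and 25 had 0 counts in all 4 siNTC libraries. The undetected genes were all 11 of HOXA, all 10 of HOXB, and HOXC11, HOXC12, HOXC13 and HOXD12. A count of 0 in the 23696270 counts of the siNTC group allows a level of up to 0.127 CPM (3 counts, counting error only, since PCR copies were not told apart). In all 16 libraries, 17 genes stayed at 0, 7 in HOXA, 7 in HOXB, HOXC11, HOXC12 and HOXD12. That allows up to 0.0311 CPM over the 96371239 counts of the study.

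Most HOX reads came from few genes. The siNTC libraries held 1569 HOX counts, 69.2% from HOXD and 30.8% from HOXC. HOXD9 alone gave 43.7% of them, HOXC4 19.5%, HOXD8 13.8%, HOXC6 9.43% and HOXD3 5.99%. HOXD10 (3.70%), HOXC9 (1.59%) and HOXD4 (1.47%) gave small shares, and no other member passed 0.382%. By position along the body axis, the 8 anterior genes (groups 1 to 3) gave 6.06% of the counts, the 15 central genes (groups 4 to 8) 44.4% and the 16 posterior genes (groups 9 to 13) 49.6%. Of the expressed members, 1 was anterior (HOXD3), 3 were central (HOXC4, HOXC6 and HOXD8) and 1 was posterior (HOXD9).

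**Figure D1:**
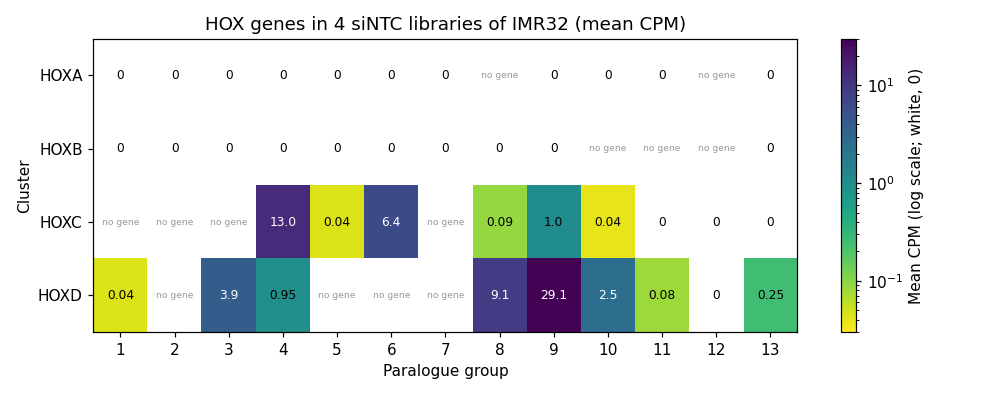
Mean CPM in the 4 siNTC libraries for each HOX gene, with clusters in rows and paralogue groups 1 to 13 in columns, on a log colour scale with 0 in white; positions marked "no gene" have no member. The HOXA and HOXB rows are at 0, and the highest value is HOXD9 at 29.1 CPM.

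HOXD9 was the most abundant HOX transcript in the control cells, at 29.1 ± 2.97 CPM (SD, n = 4), and ranked 5780 among the 14193 genes that passed the low-count filter. HOXC4 followed at 12.99 ± 2.69 CPM (rank 8391), then HOXD8 at 9.06 ± 1.74 CPM (rank 9350), HOXC6 at 6.43 ± 2.84 CPM (rank 10204) and HOXD3 at 3.95 ± 0.973 CPM (rank 11340). HOXD9 stood above all of these in every siNTC library. HOXC4 and HOXD8 overlapped in range across the siNTC libraries (8.98 to 14.8 against 7.29 to 11.4 CPM), as did HOXD8 and HOXC6 (4.01 to 9.65 CPM) and HOXC6 and HOXD3 (3.03 to 5.13 CPM), so neighbours in this order below HOXD9 were not separated beyond their spread. Even the most abundant HOX gene was far below its cofactor MEIS1, at 350 ± 47.6 CPM.

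The HOXC genes lie over 117 kb of chromosome 12 (53938765 to 54056030, GRCh38, plus strand), and the reads came from the end that holds the low-numbered genes. HOXC4 (ENSG00000198353, 54016931 to 54056030) and HOXC6 (ENSG00000197757, 53990624 to 54030823) were expressed, whereas HOXC5 and HOXC8, which lie within their annotated spans, had 1 and 2 counts in the 4 siNTC libraries together. HOXC4 and HOXC6 share 484 exon bases on the same strand, and 17.8% of the exon bases of HOXC4 are shared with any gene, but none of the last 500 exon bases of either gene, where most 3' end reads fall, is shared. For HOXC5 all of the last 500 exon bases are shared with other annotated genes, so its low count is uncertain. HOXC9, which also lies within the annotated span of HOXC6, had 1.04 ± 0.916 CPM in siNTC. Toward the end that holds the high-numbered genes, HOXC10 had 1 count in siNTC and HOXC11 to HOXC13 had none.

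The HOXD genes lie over 98.0 kb of chromosome 2 (176092891 to 176190907, plus strand), with a block of reads at HOXD8 (ENSG00000175879, 176129694 to 176132695) and HOXD9 (ENSG00000128709, 176122720 to 176124937). Levels dropped on both sides of that block, to 2.50 ± 1.46 CPM at HOXD10 and 0.954 ± 0.364 CPM at HOXD4, and HOXD3 (ENSG00000128652, 176136612 to 176173102) stood at 3.95 CPM. HOXD11 (2 counts), HOXD13 (6 counts), HOXD1 (1 count) and HOXD12 (0 counts) were near or at 0 over the 4 siNTC libraries. HOXD8 and HOXD9 share no exon base with another annotated gene. HOXD3 and HOXD4 share 62.2% and 80.5% of their exon bases with same-strand genes, mainly the unnamed gene AC009336.2, which had 2 counts in all 16 libraries. How reads in shared exons were counted is not given in the sources used here, so the levels of HOXD3 and HOXD4 are uncertain.

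**Figure D2:**
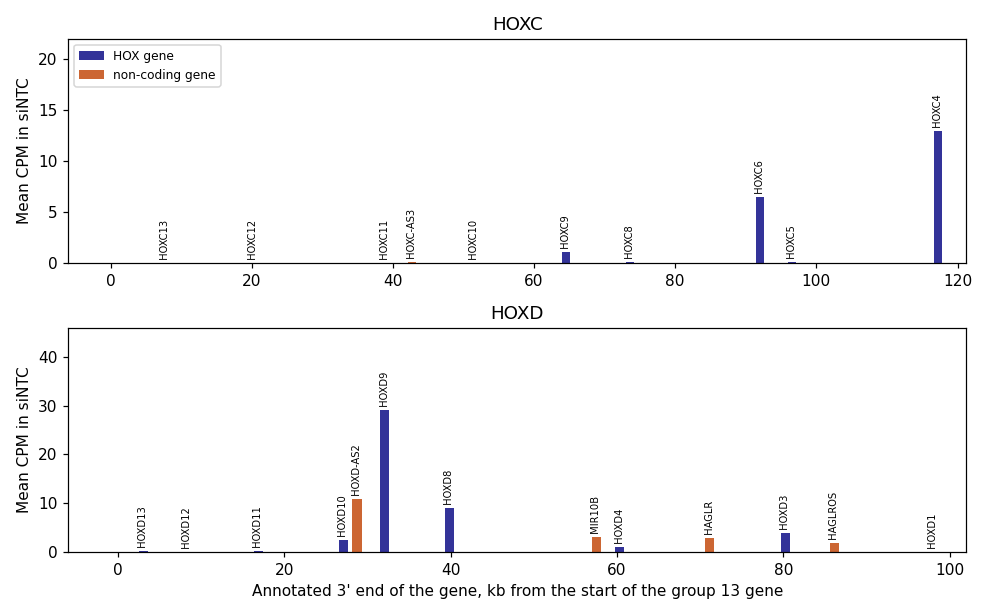
Mean CPM in siNTC along the HOXC cluster (upper) and the HOXD cluster (lower), each bar placed at the gene's annotated 3' end in kb from the start of the group 13 gene, for HOX genes and for non-coding genes with any count in siNTC. Bars in HOXC rise at HOXC6 and HOXC4 and bars in HOXD at HOXD9, HOXD8 and the non-coding gene HOXD-AS2.

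The clusters also hold non-coding genes, 24 of which were listed, and 18 of these were at 0 in siNTC. Passing the low-count filter were 4, all in HOXD, namely HOXD-AS2 (10.8 ± 1.73 CPM in siNTC), the microRNA host locus MIR10B (2.99 ± 0.376), HAGLR (2.93 ± 1.64) and HAGLROS (1.78 ± 1.41). The non-coding genes HOTAIR, which lies in HOXC, and HOTAIRM1, which lies in HOXA, were at 0, while HOXA-AS2 in HOXA had 4 counts over the siNTC libraries. MIR10B (176150303 to 176150412) lies inside HOXD3 but outside its exons, while its paralogue MIR10A in HOXB was at 0, as were the MIR196 genes at HOXA, HOXB and HOXC. The counts are of 3' end reads over these loci and do not measure the mature microRNAs. The mature sequences are shown, 5' to 3' from RefSeq (GRCh38.p14) with the seed (bases 2 to 8) in capitals, because they set a microRNA whose locus gave reads (MIR10B) beside ones whose loci gave none in siNTC. The 3p arms of miR-10b and miR-10a have different seeds, and miR-196a-5p and miR-196b-5p share 1. The 5p arms miR-10b-5p and miR-10a-5p were not compared.
hsa-miR-10b-3p (MIR10B, HOXD): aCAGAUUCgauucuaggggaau
hsa-miR-10a-3p (MIR10A, HOXB): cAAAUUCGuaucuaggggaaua
hsa-miR-196a-5p (MIR196A1, HOXB, and MIR196A2, HOXC): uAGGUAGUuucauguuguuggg
hsa-miR-196b-5p (MIR196B, HOXA): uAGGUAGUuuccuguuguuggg

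After TPX2 knockdown no HOX gene passed the test in any comparison. Of the 39 genes, 8 passed the low-count filter and were tested (HOXC4, HOXC6, HOXC9, HOXD3, HOXD4, HOXD8, HOXD9 and HOXD10), so the HOXA and HOXB clusters had no tested member. With edgeR's quasi-likelihood test and Benjamini-Hochberg adjustment over all 14193 genes, 0 of 8 were called for si45 against siNTC (1.34% of all genes tested were called), 0 for si46 (3.4%), 0 for si47 (9.74%) and 0 for the mean of the 3 siRNAs (7.14%). At an unadjusted p under 0.05 the same comparisons also held 0 HOX genes, against 11.4%, 15%, 23.3% and 20.4% of all genes. DESeq2 and limma-voom called 0 HOX genes at the adjusted threshold as well. No tested HOX gene had knockdown libraries that were all above or all below the 4 siNTC libraries, for any siRNA, while 6.31%, 9.73% and 14.4% of all genes did for si45, si46 and si47. With 8 genes and these shares, a count of 0 is near the background.

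As a cluster, HOXC summed to 20.6 ± 5.40 CPM in siNTC and to 18.7 ± 5.85, 16.5 ± 5.08 and 18.4 ± 2.95 CPM in si45, si46 and si47. HOXD summed to 45.9 ± 4.53 CPM in siNTC and to 47.5 ± 3.16, 41.0 ± 3.82 and 43.6 ± 4.53 CPM. Ranges overlapped with siNTC in each case. The median log2 fold change of the mean contrast was -0.20 over the 3 tested HOXC genes and -0.05 over the 5 tested HOXD genes, beside 0 over all genes tested. Leaving out siNTC replicate 3 moved the HOXC median to 0.05, and leaving out siNTC replicate 1 moved it to -0.38 and the HOXD median to 0.07.

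**Figure D3:**
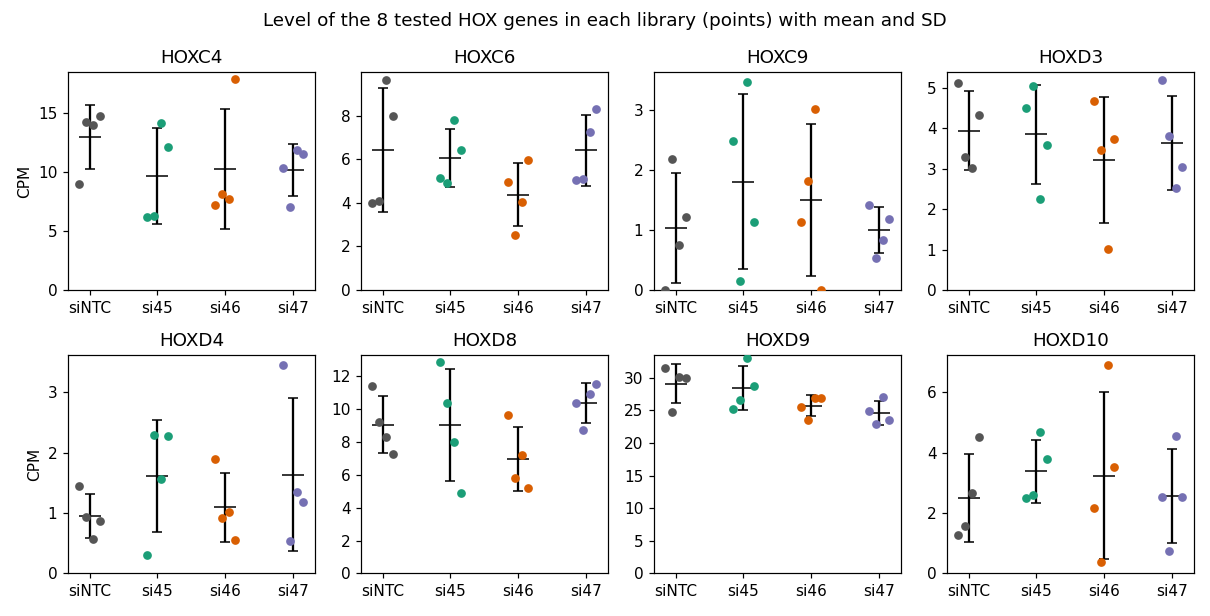
CPM of the tested HOX genes in each of the 16 libraries (points) by group, with the group mean and SD (n = 4). The knockdown points overlap the siNTC points in every panel.

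HOXD9, a posterior-group factor, was measured most precisely. Its siNTC libraries held 31.4, 24.7, 30.07 and 30.01 CPM, si45 held 25.2, 26.6, 32.9 and 28.8, si46 held 25.5, 23.5, 26.9 and 26.8, and si47 held 24.8, 22.9, 27.1 and 23.5. In si47 2 libraries were below all siNTC libraries, and the other 2 lay within the siNTC range. The fitted log2 fold change was -0.24 (SE 0.138, 95% interval -0.52 to 0.04) for si47, with an edgeR adjusted p of 0.303, and -0.15 (SE 0.112, -0.38 to 0.08, adjusted p = 0.482) for the mean of the siRNAs.

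HOXC4, a central-group factor, had the lowest adjusted p of the HOX genes in the mean contrast. Its siNTC libraries held 8.98, 14.2, 13.99 and 14.8 CPM, si45 held 6.21, 6.27, 14.2 and 12.1, si46 held 7.22, 8.18, 7.74 and 17.9, and si47 held 10.4, 7.08, 11.9 and 11.5. Of the 12 knockdown libraries 6 lay below all siNTC libraries and 1 lay above them, so both sides of the siNTC range were passed. The log2 fold change was -0.37 (SE 0.231, -0.85 to 0.10) for the mean contrast, with an edgeR adjusted p of 0.383, and -0.43, -0.35 and -0.34 for si45, si46 and si47. Without si46 replicate 4, the highest library, the si46 value was -0.75 and its adjusted p 0.203, still short of the threshold.

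HOXC6, which lies next to HOXC4, held 4.01, 4.07, 9.65 and 7.98 CPM in siNTC, 5.12, 4.89, 7.80 and 6.43 in si45, 4.94, 2.55, 4.04 and 5.96 in si46, and 5.03, 5.08, 7.23 and 8.30 in si47. The siNTC libraries alone spanned over the range of si45 and si47, and 1 si46 library lay below them. Its log2 fold changes were -0.08, -0.54 and 0.01 for si45, si46 and si47, with an edgeR adjusted p of 0.469 for si46 (SE 0.323, -1.19 to 0.12).

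HOXD8, the neighbour of HOXD9, held 11.4, 9.23, 8.32 and 7.29 CPM in siNTC, 12.9, 10.4, 7.98 and 4.92 in si45, 9.62, 5.82, 7.24 and 5.22 in si46, and 10.4, 8.71, 10.9 and 11.5 in si47. In si46 3 of 4 libraries were below siNTC, in si47 1 was above, and in si45 1 was above and 1 below. Against siNTC the log2 fold changes were 0.01, -0.36 and 0.19, with edgeR adjusted p = 0.997, 0.574 and 0.709.

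HOXD3, the only expressed anterior member, held 5.13, 3.29, 3.03 and 4.34 CPM in siNTC, 4.50, 5.05, 2.25 and 3.59 in si45, 4.68, 3.46, 1.01 and 3.73 in si46, and 5.19, 3.81, 2.52 and 3.05 in si47. Each group had libraries inside the siNTC range, with 1 library of each siRNA below it and 1 si47 library just above it. Its log2 fold change in the mean contrast was -0.14 (SE 0.318, -0.79 to 0.50), with an edgeR adjusted p of 0.854.

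The other tested genes were low in siNTC and imprecise. HOXD10 held 1.28, 1.56, 2.65 and 4.51 CPM in siNTC and ranged from 0.364 to 6.90 CPM in si46, the group with its widest spread. Its log2 fold change in the mean contrast was 0.29, with a 95% interval of -0.65 to 1.24. HOXD4 had a mean of 0.954 CPM in siNTC and 1.61, 1.09 and 1.63 CPM in si45, si46 and si47, a log2 fold change of 0.57 with an interval of -0.52 to 1.66. HOXC9 ranged from 0 to 2.19 CPM in siNTC and gave 0.41, with an interval of -0.97 to 1.78. The edgeR adjusted p values of the mean contrast were 0.783, 0.602 and 0.793 for HOXD10, HOXD4 and HOXC9. For these 3 genes the intervals include a rise of 1 on the log2 scale and leave out a fall of 1.

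**Figure D4:**
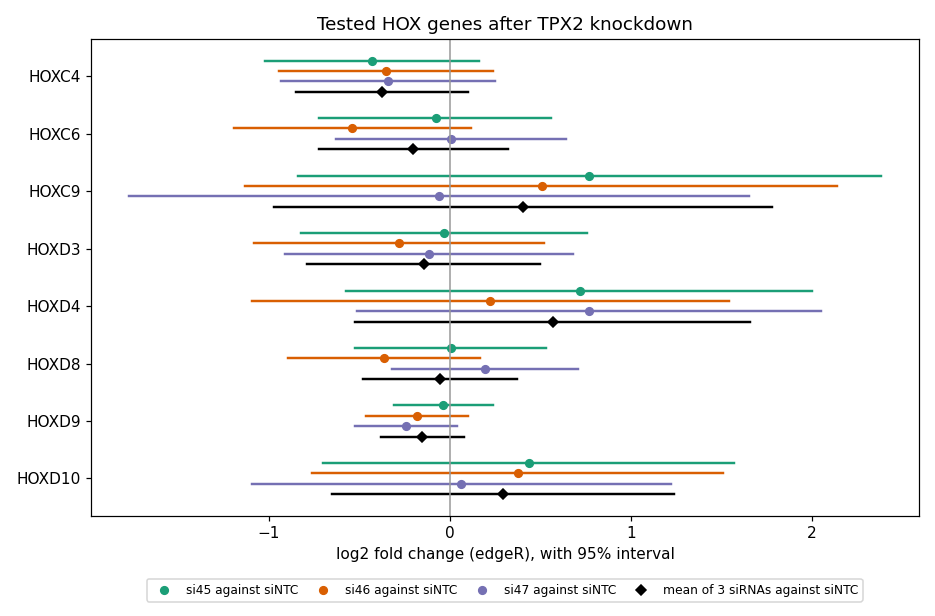
Log2 fold change (horizontal axis) of the 8 tested HOX genes for si45, si46 and si47 against siNTC and for the mean of the siRNAs, from edgeR, with 95% intervals as lines. The interval of each gene crosses 0, and it is narrowest for HOXD9 and widest for HOXC9.

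The siRNAs were also compared with each other. For si46 against si45, si47 against si45 and si47 against si46, edgeR called 0 of 8 HOX genes, beside 0.0282%, 0.169% and 0.0493% of all genes. At an unadjusted p under 0.05 the count was 0 for the first and the second, beside 4.1% and 10.4% of all genes, and 1 for the last, beside 7.29%. The gene was HOXD8, higher in si47 than in si46 by 0.56 on the log2 scale (SE 0.260, 0.03 to 1.08). Its p from edgeR's quasi-likelihood fit was 0.0392, and the adjusted p was 0.649.

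Members that were not tested gave scattered reads. HOXA reads appeared in 6 of the 12 knockdown libraries, with 3 counts in si45, 1 in si46 and 8 in si47, and HOXB reads in 3 si46 libraries, with 6 counts. No HOXA or HOXB gene had over 3 counts in any library, HOXA13 and HOXB9 having the most in all (7 and 4). These genes did not pass the low-count filter and were not tested. HOXC10, named after its values were seen, had 14 and 5 counts in si45 replicates 2 and 4 and 8 in si47 replicate 2, and 0 or 1 in each of the other 13 libraries. HOXD13, also named after its values were seen, had 10 counts in si46 replicate 2 and at most 5 elsewhere. HOXD1 had 1 count in siNTC and up to 7 in a knockdown library, and all of its last 500 exon bases are overlapped on the opposite strand, so its reads cannot be told from those of antisense genes without strand.

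The spread of the HOX genes between replicates was large beside their group differences, and part of it followed the replicate number in the labels. In a test chosen after the values were seen, edgeR's F test for a difference between replicate numbers 1 to 4, with the groups in the model, called 2 of the 8 HOX genes and 8.34% of all genes. HOXD10 averaged 2.11, 1.31, 4.69 and 3.59 CPM in replicates numbered 1 to 4 (edgeR adjusted p = 0.0185), and HOXC4 8.20, 8.94, 11.97 and 14.1 CPM (adjusted p = 0.0387). HOXC6, with 4.78, 4.15, 7.18 and 7.17 CPM, had an adjusted p of 0.111, and HOXD3, with 4.88, 3.90, 2.20 and 3.68 CPM, one of 0.152. The labels do not say what a replicate number stands for. With the number in the model the group comparisons still called 0 HOX genes.

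**Figure D5:**
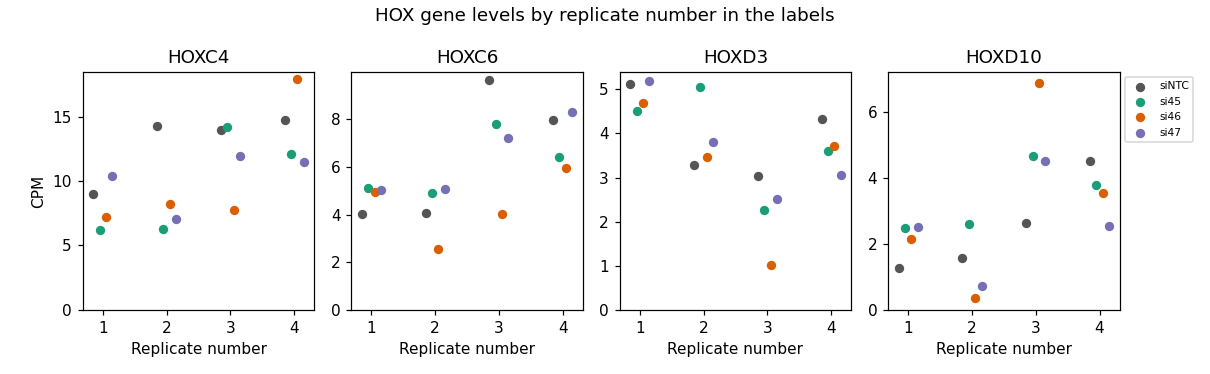
CPM of HOXC4, HOXC6, HOXD3 and HOXD10 (vertical axes) by replicate number in the labels, with 1 point for each library and the siRNA group given by colour. For HOXC4 and HOXD10 the libraries numbered 3 and 4 lie mostly above those numbered 1 and 2, with siNTC replicate 2 and si46 replicate 3 as exceptions for HOXC4.

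The non-coding genes of the HOXD cluster were tested in the same fit and 0 of 4 were called in any comparison. Of all genes 0.0282% to 9.74% were called, so with 4 genes a count of 0 is near the background. HOXD-AS2, antisense to the region of HOXD8 and HOXD9, held 12.8, 8.60, 10.8 and 11.1 CPM in siNTC and 17.0, 10.5, 11.3 and 20.8 CPM in si47. The log2 fold change was 0.46 for si47 and 0.33 for the mean of the siRNAs, with edgeR adjusted p of 0.213 and 0.330. MIR10B held 2.57, 3.44, 2.84 and 3.12 CPM in siNTC and 2.67, 5.62, 5.21 and 6.77 CPM in si47, where 3 of 4 libraries stood above siNTC (0.75, SE 0.395, edgeR adjusted p = 0.251).

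The 9 TALE genes (PBX, MEIS and PKNOX) encode cofactors that HOX proteins bind DNA with. Their siNTC means ran from 1.95 CPM (PKNOX2) to 350 CPM (MEIS1), with PBX4 at 3.78 and PBX2 at 7.53 CPM. None of the 9 passed the edgeR threshold in any of the 7 comparisons. Those comparisons called 0.0282% to 9.74% of all genes, so with 9 genes a count of 0 is near the background. MEIS1 averaged 350 CPM in siNTC and 334, 346 and 334 CPM in si45, si46 and si47 (mean contrast -0.05, SE 0.0725, adjusted p = 0.744).

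Some single genes from lists of HOX regulators passed the edgeR threshold in the mean contrast, where 7.14% of all genes tested were called. Such small counts in short lists are not read as a trait of the lists. The upstream homeobox factors CDX1, CDX2 and CDX4 and the hindbrain factor EGR2 were at 0 in siNTC. Of 19 Polycomb genes, all tested, 2 fell in the mean contrast. EZH2, the methyltransferase of Polycomb complex PRC2, averaged 252 ± 13.9 CPM in siNTC and 214 ± 18.2, 186 ± 11.9 and 183 ± 16.6 CPM in the knockdowns, and fell by 0.38 (SE 0.0690, edgeR adjusted p = 0.000384, 12 of 12 libraries). SUZ12, another PRC2 subunit, fell by 0.29 (SE 0.0745, edgeR adjusted p = 0.011). For si47 alone 4 fell (EZH2, SUZ12, PCGF2 and RBBP4), where 9.74% of all genes were called. In the mean contrast the median of the Polycomb list was -0.05, beside 0 over all genes tested, and 7.14% of all genes were called.

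Of the 11 Trithorax and MLL genes, all tested, 2 passed in the mean contrast, where 7.14% of all genes were called. KDM6B, a demethylase that removes the Polycomb mark, rose by 0.50 (SE 0.113, edgeR adjusted p = 0.00436), and PSIP1, a chromatin tether of the MLL complex, fell by 0.30 (SE 0.0745, adjusted p = 0.00861). Among 17 retinoid signalling genes, 10 were tested and 1 passed in the mean contrast, the receptor RXRA, which fell by 0.51 (SE 0.126, edgeR adjusted p = 0.0129). In si47 alone RARA, another receptor of this list, rose (0.46, edgeR adjusted p = 0.0486, 9.74% of all genes called). Of the 13 genes that flank the clusters, 6 were tested and 1 passed in the mean contrast, CBX5 beside HOXC, a heterochromatin protein that fell by 0.23 (SE 0.0624, edgeR adjusted p = 0.0163). CALCOCO1, also beside HOXC, rose against siNTC in si46 (1.09, edgeR adjusted p = 0.0251, 3.4% of all genes called) and in si47 (0.90, adjusted p = 0.0407, 9.74% called), above all siNTC libraries in 4 of 4 libraries each, and gave 0.67 in the mean contrast (adjusted p = 0.0904). LNPK beside HOXD, at 53.3 CPM in siNTC, gave -0.14 (edgeR adjusted p = 0.43), and EVX2 had 4 counts in siNTC and TTLL6 none.

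RefSeq promoter windows (GRCh38.p14, 250 bases before to 50 after a start site) were matched for 20 of the 39 members. The letters CACGTG, which read the same on both strands and form the E-box bound by MYC and MAX proteins, were searched for because the line carries amplified MYCN, a choice made after the values were seen. They occur in 9 of the 20 genes (45%), 4 of 9 in HOXA and 5 of 8 in HOXD, beside 8.78% of 27305 genes with such windows. HOX windows also held a median of 22 CpG sites, beside 14 in all windows. Of the members expressed in siNTC, HOXD3 has a match, HOXC4 and HOXD8 have none, and HOXC6 and HOXD9 had no window. The 9 HOXA genes with windows were all undetected, and 4 of them have a match, HOXA3 with 7 windows among them. The windows of 30 bases below show the match (capitals) at an expressed, a low and an undetected member, 47, 106 and 71 bases before their start sites, on the plus strand at chr2:176157248-176157277 and chr2:176116660-176116689 and on the minus strand at chr7:27165591-27165620.
HOXD3 (expressed in siNTC): acaagtcccgacCACGTGattggcgaaata
HOXD10 (low in siNTC): caggctctggagCACGTGacccgagaggag
HOXA9 (undetected in siNTC): ctgctggacgggCACGTGacgcgcacggcc
A match is a description of these letters and not a measured binding site.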

How the data were processed

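The deposited table holds raw counts per Ensembl gene for 16 libraries, whole numbers that were not normalized. Per the labels, the RNA was DNase-treated and the QuantSeq libraries, which capture 3' ends, went through 15 PCR cycles. The submitters' processing notes name FastQC 0.11.7, STAR 2.7.2b, edgeR 3.36.0, limma 3.50.3 and GRCh38. The counter, annotation, strand setting and molecular identifiers are not given in the sources used here, which affects genes that share exons. Mitochondrial genes are not analysed here.

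Samples were grouped by siRNA and columns matched by siRNA and replicate number. Symbols matched 58434 identifiers, and positions came from GENCODE v29. The tests used edgeR 4.0.16 under R 4.3.3 (filterByExpr with minimum count 10 and minimum total 15, TMM, robust quasi-likelihood, 1 model of 4 group means, no covariate), in 7 contrasts, each adjusted by Benjamini-Hochberg with a threshold of 0.05. SE is the log2 fold change divided by the square root of F. TPX2 was tested by exact permutation on log2(CPM + 1). On simulated si47 and siNTC counts, 71.5% of 200 genes changed by 1 (log2) were recovered, with 4 false calls among 13936 genes. The 200 were drawn at random from all genes past the low-count filter, so this share was not measured for the HOX genes.

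No 2 replicates agreed within sampling noise (chi-square per degree of freedom 4.36 to 9.80). The deviations of same-numbered libraries from their group means gave r over 0.1 in each of the 4 si45 and si47 pairs, which no other 2 groups showed. That pairing comes from the values, not the labels.

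The members and lists were chosen with earlier results of these data known. Genes named were those expressed in siNTC, past the threshold, or with a mean of at least 10 counts in a group. Of other lists, members past the threshold in the mean contrast were named, at most 4 a list, with MEIS1 whatever its value. Some items that this rule covers are not reported here. Alternatives were DESeq2 1.42.0, voom from limma 3.58.1, scaling by RLE or upper quartiles, other low-count filters, a block for the replicate number, fits of the compared groups alone, other expression rules and leaving out each library. Figures were drawn with matplotlib 3.10.9.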

Additional observations from a re-analysis of the deposited data

Results flagged for a closer look

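Of 44 groups of 4 libraries examined, 3 had a library far from the others by Dixon's ratio, where chance gives about 1 in 20. HOXC4 stood at 8.98 CPM in siNTC replicate 1, below 13.99 to 14.8 CPM in the other 3. HOXC4 stood at 17.9 CPM in si46 replicate 4, above 7.22 to 8.18 CPM in the other 3. The summed level of the HOXC cluster in the same si46 replicate 4 was 24.0 CPM, above 13.4 to 15.2 CPM, and HOXC4 is its largest part.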

How the results depend on the processing

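In all 7 comparisons the count of HOX genes called was 0 under every alternative that was run. The lowest adjusted p was 0.149, for HOXC4 in the mean contrast with the replicate number as a block (log2 fold change -0.40), and 0.150 without si46 replicate 4 (-0.51). The block, which gave all groups the same term for each replicate number, changed no call. By the check of deviations, only si45 and si47 had r over 0.1 at every number. Other groups passed it at some numbers, as si45 and si46 did at replicate 3 (0.282). Over the alternatives at most 2 HOX genes passed an unadjusted p of 0.05 in any comparison. The number tested was 8, and it was 22 with no low-count filter and 4 with at least 10 counts in every library, by construction of those filters. The number expressed in siNTC was 5, and 6 at a minimum of 5 counts, 4 at 20, 7 by a mean of 1 CPM and 5 to 6 when 1 siNTC library was left out. The HOXC median ranged from -0.38 to 0.05 and the HOXD median from -0.12 to 0.07 when 1 library was left out, and with the replicate block they were -0.16 and -0.06. Of 1297 values of named genes under 24 settings, 72 changed sign, all of values not called in either fit, and 11 moved by over 1 SE. HOXA and HOXB medians could not be given, since no member was tested. Fitting only the groups compared is the same fit for the mean contrast. The tested HOX genes varied between replicates with a coefficient of 0.122 to 0.624, where the median gene had 0.162, and at this depth 10 counts were 1.27 to 1.88 CPM.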
